A study of Drosophila melanogaster with 3 samples.

Results

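The 8 subunit genes of the cytosolic chaperonin CCT, CCT1 to CCT8, were examined for Elba2 binding at and around their starts in the Drosophila melanogaster embryo. The genes were picked by name as the subunits of 1 complex, with earlier results of these data known, and the rule used no measured value. All 8 were found among 13968 protein-coding genes of the annotation. Elba2 was mapped by chromatin immunoprecipitation and sequencing in whole embryos of mixed sex aged 0 to 4 h. All embryos came from 1 transgenic line, strain CG9883-GFP, in which a C-terminal GFP is fused to Elba2 by an insertion targeting that gene, and the chromatin was pulled down with an antibody to GFP. The 3 samples are biological replicates of this 1 group, with no second genotype, untagged line or input library among them, so no comparison between groups could be made. Elba2 is a BEN-domain protein and a subunit of ELBA, an early-embryo complex that binds insulator DNA. Because whole embryos were used, binding in fewer cells and weaker binding in every cell cannot be told apart.

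CCT is a double-ring machine of the cytosol in which each of the 8 different subunits holds its own place, and all of them are needed for a working ring. It encloses newly made proteins, above all actin and tubulin and a number of WD40-repeat proteins, and uses ATP to let them fold. Prefoldin, a smaller co-chaperone complex, delivers unfolded actin and tubulin to the ring, and an early embryo, which divides and builds its cytoskeleton quickly, makes much of both.

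The sequences just before the transcription start site (TSS) are shown first, since a short word recurs there. The hexamer ATCGAT, the centre of the DNA replication-related element (DRE, TATCGATA, the site of the factor Dref), was found in the promoters of 8 of 8 CCT genes, taken from 250 bp before to 50 bp after the TSS. The same hexamer, which reads alike on both strands, was in 23.3% of all protein-coding promoters (3249 of 13968). In 7 of the 8 genes a copy lay wholly within 50 bp before the TSS, where 9.91% of all genes had one (1384 of 13968), and CCT1 was the exception. This hexamer and the 50 bp limit were chosen after the promoters had been seen, so the counts are a description. The 50 bases before the first TSS of 6 of the genes, from build dm6, are given 5′ to 3′ in the direction of transcription with the hexamer in capitals. They are chrX:9089463-9089512 on the plus strand for CCT2, chr3R:16647555-16647604 on the plus strand for CCT3, and chr2L:12692935-12692984 on the minus strand for CCT4. For CCT6 they are chrX:15746598-15746647 on the plus strand, for CCT7 chr3R:8801514-8801563 on the plus strand, and for CCT1 chr3R:22491440-22491489 on the minus strand.
CCT2: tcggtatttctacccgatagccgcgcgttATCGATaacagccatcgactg
CCT3: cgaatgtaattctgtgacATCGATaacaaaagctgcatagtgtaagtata
CCT4: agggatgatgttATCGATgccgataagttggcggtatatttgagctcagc
CCT6: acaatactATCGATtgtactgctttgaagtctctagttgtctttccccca
CCT7: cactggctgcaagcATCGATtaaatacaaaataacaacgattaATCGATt
CCT1: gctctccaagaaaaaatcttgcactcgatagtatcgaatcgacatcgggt

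Only the CCT2 copy among these 6 windows is a full DRE, with T before and A after the hexamer. Its first capital lies 21 bp before the TSS. The copies of CCT3, CCT4 and CCT6 begin 32, 38 and 42 bp before their TSSs, and CCT7 has copies at 36 and 7 bp. In CCT1 the hexamer begins farther out, at 186 and 196 bp before the TSS.

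A longer word, GGTCACAC, bound by the factor M1BP near the starts of many housekeeping genes, was found at the starts of CCT4 and CCT6. The word is shown in capitals, 5′ to 3′ in the direction of transcription. It was chosen because it lies inside the CCT6 region, the strongest Elba2 region within 500 bp of a TSS of the family. The CCT6 stretch is chrX:15746640-15746669 on the plus strand and the CCT4 stretch chr2L:12692990-12693019 on the minus strand of dm6. The third sequence, from chr3R:16647097-16647297 on the plus strand, is the 201 bp centred on the summit of the region near CCT3, which held none of the 8 words that were searched.
CCT6 site: ttcccccatctGGTCACACttgccatctga
CCT4 site: acgcaaaatacGGTCACACcaatttgccat
CCT3 summit: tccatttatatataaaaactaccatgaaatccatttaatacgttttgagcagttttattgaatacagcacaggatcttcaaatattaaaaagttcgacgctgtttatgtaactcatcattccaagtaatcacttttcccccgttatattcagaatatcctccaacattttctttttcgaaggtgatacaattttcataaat

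The values come from lists of regions deposited by the authors. A permissive list, meant to hold peaks together with background, was given for each replicate (29295, 30000 and 30000 regions) and for the replicates pooled (28496 regions). An optimal list of 3276 regions passed the authors' filter on irreproducible discovery rate (IDR), a measure of how well replicates rank the same regions. These 3276 regions were identical to the 3276 regions of highest signal in the pooled list, and their lowest signal was 109. The signal value of a region is the authors' own and its scale is not stated, so it served only to rank regions within a list. A rank percentile of 100 marks the highest signal of a list. The depth behind each value is unknown, since no read numbers entered. A region was assigned to a gene's start where its summit lay within 500 bp of an annotated TSS of that gene.

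Of the 8 CCT genes, 1 had an optimal IDR summit at its start (12.5%, exact 95% interval 0.316 to 52.7), namely CCT6. Among all protein-coding genes 17.9% had one. In the pooled permissive list 7 of the 8 genes had a region at a start (87.5%, exact 95% interval 47.3 to 99.7), against 53.2% of all genes, and CCT2 was the gene without one. The intervals cover counting error over genes only, and neighbouring genes that share a region are not independent. Of the 7 CCT genes with a pooled region 14.3% had an optimal summit, against 33.6% of all genes with a pooled region. The family thus had permissive regions within 500 bp of nearly every start, and for both lists the share of all genes lay within the counting interval of the CCT share. The 8 genes are the whole family and not a sample, so this is no test of the family against all genes.

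**Figure D1:**
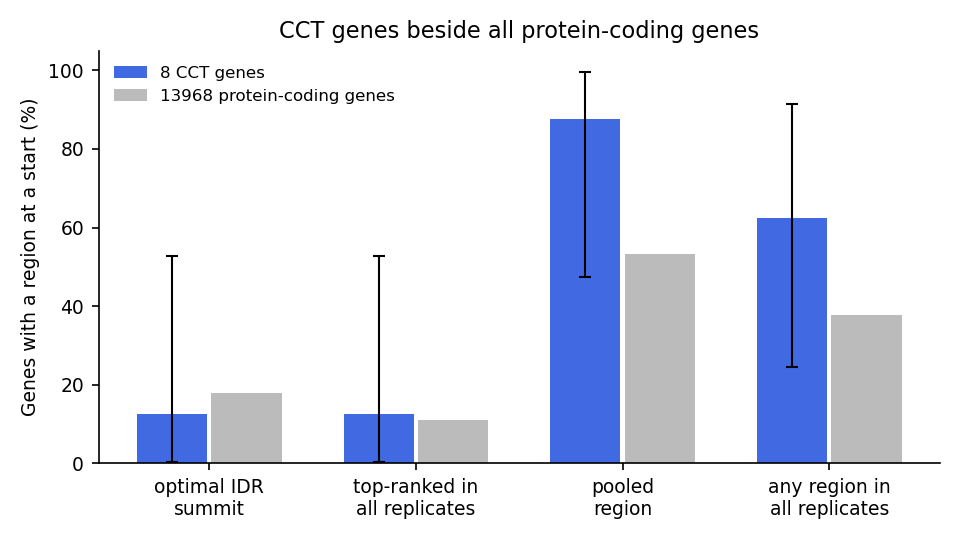
Percentage of genes with an Elba2 region whose summit lay within 500 bp of a TSS, for the 8 CCT genes (blue bars, with exact 95% intervals) and for all 13968 protein-coding genes (grey bars). The CCT bar is 12.5% beside 17.9% for optimal summits and 87.5% beside 53.2% for pooled regions. It is 12.5% beside 10.9% for genes with a top-ranked region in all replicates and 62.5% beside 37.6% for genes with any region in all replicates.

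The replicates gave nearly the same counts. Replicates 1 and 2 each had a region at the start of 7 CCT genes, all but CCT2, where 53.8% and 50.9% of all genes had one. Replicate 3 had a region at 6 starts, against 51.5% of all genes, and it lacked CCT4 and CCT8 but had CCT2. The mean over replicates was 6.67 ± 0.577 genes (SD, n = 3). CCT1, CCT3, CCT5, CCT6 and CCT7 had a region in all 3 replicates (62.5%), as did 37.6% of all genes. Among the 3276 highest-ranking regions of each replicate, only CCT6 was present in each of the 3, while 18.7%, 17.4% and 16.0% of all genes had such a region in replicates 1, 2 and 3, and 10.9% had one in all of them.

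CCT6 (FBgn0027329, X:15746648 to 15748971 on the plus strand of dm6) stood above its sister genes in every list by its region at the start. Its region spanned X:15746499 to 15746922, with the summit at X:15746711, 63 bp inside the gene in the 5′ UTR, and a signal of 199 that ranked 1015 in the pooled list. Its ranks were 1092, 988 and 1135 in replicates 1, 2 and 3, which are rank percentiles of 96.3, 96.7 and 96.2 (mean 96.4 ± 0.268, SD, n = 3). No other CCT gene reached these percentiles in any replicate, and the values of CCT6 lay closer together than those of any other member measured in more than 1 replicate. The summits stood 17, 64 and 63 bp inside the gene, a range of 47 bp. That range was examined after the regions had been seen, and its median was 122 bp over the 5245 genes with a region in every replicate and 64.0 bp over those with an optimal summit. Replicate 3 had a second region 289 bp inside the gene, in an intron, at rank 3197.

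Among 5239 genes outside the family, the start whose ranks were nearest to those of CCT6 was shared by Prosbeta5, a catalytic subunit of the proteasome, and dgo, a planar polarity gene. It ranked 982, 1020 and 1109 in replicates 1, 2 and 3, a summed difference of 0.0700 in log10 rank over the 3 replicates. The next was the shared start of CG30159 and Tsp42Ea, a tetraspanin gene, with ranks of 1130, 1056 and 1217 and a summed difference of 0.0741.

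CCT3, CCT4 and CCT5 followed, with pooled regions that ranked close to each other and below the optimal list. CCT3 (FBgn0015019, 3R:16647605 to 16649978, plus strand) had a pooled signal of 87.6 at rank 4813. Its ranks in replicates 1, 2 and 3 were 3618, 7174 and 21452, or percentiles of 87.7, 76.1 and 28.5 (mean 64.1 ± 31.4, SD, n = 3), so replicate 3 stood far below the others. All of these summits lay between genes, 408, 405 and 329 bp before the CCT3 start, and the printed CCT3 summit sequence is centred on the pooled one. CCT4 (FBgn0032444, 2L:12690336 to 12692934, minus strand) had a pooled signal of 83.0 at rank 5284. It ranked 3908 and 6396 in replicates 1 and 2 (percentiles 86.7 and 78.7, mean 82.7 ± 5.64, SD, n = 2) and had no region at its start in replicate 3. The CCT4 summits lay 200 and 198 bp inside the gene, in a coding exon, and differed by less than the fragment length of 200 to 800 bp.

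CCT5 (FBgn0010621, 2R:12174802 to 12177516, plus strand) has 2 annotated TSSs and had pooled regions at both. The strongest, 3 bp from the first TSS, had a signal of 81.0 at rank 5503, and the other pooled regions at its start ranked 22577 and 24127. In replicates 1, 2 and 3 the strongest CCT5 region ranked 4985, 7638 and 4357, at percentiles of 83.0, 74.5 and 85.5 (mean 81.0 ± 5.73, SD, n = 3). In replicates 1 and 2 that region stood at the first TSS, and in replicate 3 at the second, so the strongest summits spanned 353 bp. Replicate 3 also had a weaker region 42 bp after the first TSS, at rank 10831 (percentile 63.9). The mean and SD thus join regions at different TSSs. By its strongest region at either TSS, CCT5 had the least spread in percentile after CCT6 among the genes with a region in all 3 replicates.

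CCT8, CCT1 and CCT7 had the weakest pooled start regions. CCT8 (FBgn0284436, 2R:8904844 to 8906990, minus strand) had a pooled signal of 67.9 at rank 7618, with the summit 436 bp before the start, and a second region 60 bp before it at rank 25211. Its ranks were 8194 and 13042 in replicates 1 and 2 (percentiles 72.0 and 56.5, mean 64.3 ± 11.0, SD, n = 2), and replicate 3 had none within 500 bp. Just outside that limit, replicate 3 had a region 512 bp before the CCT8 start, at rank 6912 (percentile 77.0). CCT1 (FBgn0003676, 3R:22489105 to 22491439, minus strand), long known in the fly as a T-complex chaperonin gene, had a pooled signal of 62.5 at rank 8956, 3 bp inside the gene. Its ranks were 15821, 7254 and 12058 (percentiles 46.0, 75.8 and 59.8, mean 60.5 ± 14.9, SD, n = 3). CCT7 (FBgn0037632, 3R:8801564 to 8806234, plus strand) had a pooled signal of 47.0 at rank 16217, 227 bp before the start, and ranks of 15836, 10645 and 13187 (percentiles 45.9, 64.5 and 56.0, mean 55.5 ± 9.30, SD, n = 3). Its summits lay 362 and 281 bp before the start in replicates 1 and 2 and 95 bp inside the gene in replicate 3, a range of 457 bp. Genes with a region in every replicate but no optimal summit had a median range of 233 bp.

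CCT2 (FBgn0030086, X:9089513 to 9092826, plus strand) was the only member without a pooled region at its start. Replicates 1 and 2 had none either, and replicate 3 had 2 regions, 235 bp inside the gene at rank 12025 and 82 bp before it at rank 24812. In the order of pooled percentiles, CCT6 (96.4) was followed by CCT3 (83.1), CCT4 (81.5), CCT5 (80.7), CCT8 (73.3), CCT1 (68.6) and CCT7 (43.1). Members farther apart in this order did not all overlap. The lowest CCT4 percentile of 78.7, from replicates 1 and 2 only, was above every CCT8, CCT1 and CCT7 value within 500 bp. From CCT3 to CCT7 the replicate values of neighbours in the order overlapped, with 1 exception. The lowest CCT5 percentile of 74.5 was above the highest CCT8 value of 72.0, and CCT8 had no region within 500 bp in replicate 3. This exception rests on the 500 bp limit, since the replicate 3 region 512 bp before CCT8 had a percentile of 77.0. It also holds only for the strongest CCT5 region at either TSS. The replicate 3 region at the first CCT5 TSS had a percentile of 63.9. Within 500 bp CCT6 did not overlap with the others, since its lowest percentile of 96.2 was above the highest of any other member, 87.7 for CCT3 in replicate 1. Farther out, a replicate 3 region 919 bp before the first CCT5 TSS had a percentile of 98.1, above CCT6. The median pooled percentile of the 7 CCT genes was 80.7, beside 80.1 for the 7432 protein-coding genes with a pooled region. In replicates 1, 2 and 3 the CCT medians were 83.0, 75.8 and 59.9 beside 81.2, 80.0 and 78.6.

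**Figure D2:**
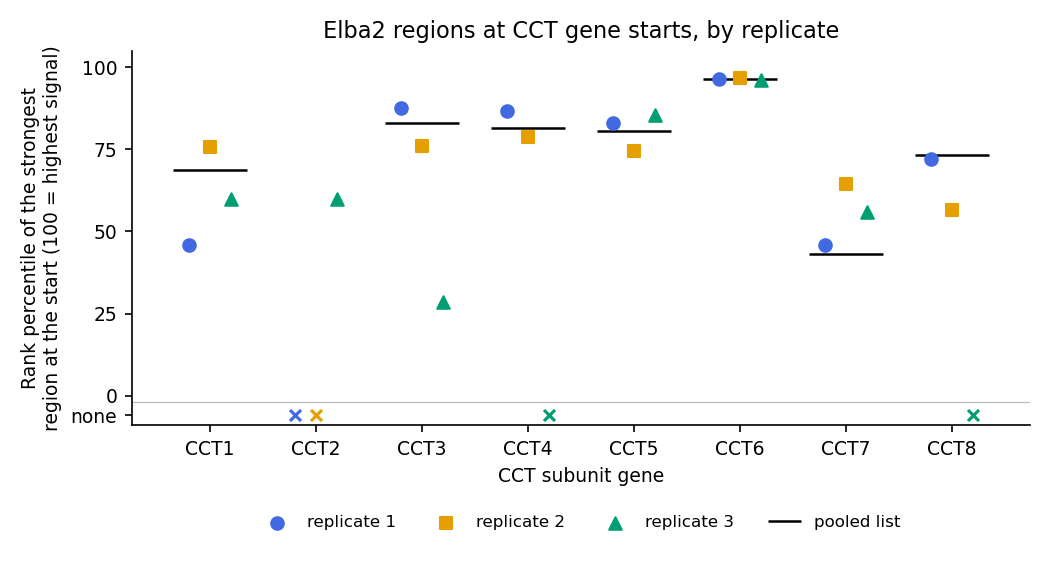
Rank percentile (vertical axis, 100 the highest signal in a list) of the strongest Elba2 region within 500 bp of a TSS of each CCT gene in replicates 1, 2 and 3 (points) and in the pooled list (black lines); crosses mark replicates with no region. CCT6 lies between 96.2 and 96.7 in all replicates, above every other member, and CCT3 falls to 28.5 in replicate 3.

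Most CCT starts face another gene. Of the 8 genes, 7 have a protein-coding neighbour on the opposite strand that starts within 1000 bp and is transcribed away from them, an arrangement found in 35.2% of all protein-coding genes (4913 of 13968), and CCT2 is the exception. Among all genes with such a divergent neighbour, 76.5% had a pooled region at a start and 34.0% an optimal summit, while the 7 CCT genes had 7 and 1. The part of this arrangement in the family's count of pooled regions was not tested. This arrangement was examined after the regions had been seen.

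The region at a CCT start could accordingly belong to either gene of a pair. In 6 of the 7 CCT genes with a pooled region (85.7%), the summit also lay within 500 bp of the start of another protein-coding gene, as it did for 44.2% of all genes with a pooled region. For CCT3, CCT7 and CCT8 the neighbour's start was the nearer one. The CCT3 summit lay 193 bp from the start of CG10324, the CCT7 summit 161 bp from the shared start of Pif1A and Pif1B, and the CCT8 summit 92 bp from the start of CG30349. In replicate 3 the CCT7 summit was nearer to CCT7. For CCT1, CCT4 and CCT6 the CCT start was the nearer one, with tHMG1, an HMG-box gene, at 393 bp, CG6153 at 258 bp and CG8944 at 480 bp. CG8944 thereby also counts as a gene with an optimal summit, and an annotated jockey2 transposable element starts 368 bp from the CCT6 summit. The pooled CCT5 summit was shared with no other start, and in replicate 2 it lay 492 bp from that of Oda, the antizyme of ornithine decarboxylase.

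Beyond the starts, optimal summits lay within 2 kb of 3 further members, CCT1, CCT5 and CCT7, a placement found for 19.2% of all genes. Upstream of CCT5 stood the strongest region near any member. It had a signal of 272 at rank 507 and lay in an intron of Oda, 1443 bp before the first CCT5 TSS. A second optimal summit, with a signal of 147 at rank 1907, lay 919 bp before CCT5 and 381 bp from an Oda start. Downstream of CCT1, 2 optimal summits lay 1718 and 1519 bp from the end of the gene in a coding exon of Pfdn5, a subunit of prefoldin. Their signals were 134 and 115, at ranks 2259 and 2997, and they stood 186 and 385 bp inside Pfdn5. Downstream of CCT7, a summit with a signal of 141 at rank 2046 lay 941 bp from the gene's end, in a coding exon of hng2. Each of these summits thus lay within an annotated neighbour and none within a CCT gene.

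In the pooled list, 7 CCT genes had 19 such regions within 2 kb but away from their starts, and 73.1% of all genes had at least 1. The replicates had 22, 14 and 17, in each case near 7 genes. CCT5 had the most in the pooled list, 6, of which 4 lay in introns of Oda, 1 in an exon of EndoG, a nuclease gene, and 1 just before the start of EndoG. Inside the CCT genes themselves the pooled summits away from a start lay in coding exons, 1 in CCT4, 1 in CCT7 and 2 in CCT8, and their signals ran from 40.9 to 70.8. The CCT7 one lay 13 bp from the start of CG9839 on the other strand. CCT3 had no pooled region beyond the one at its start.

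**Figure D3:**
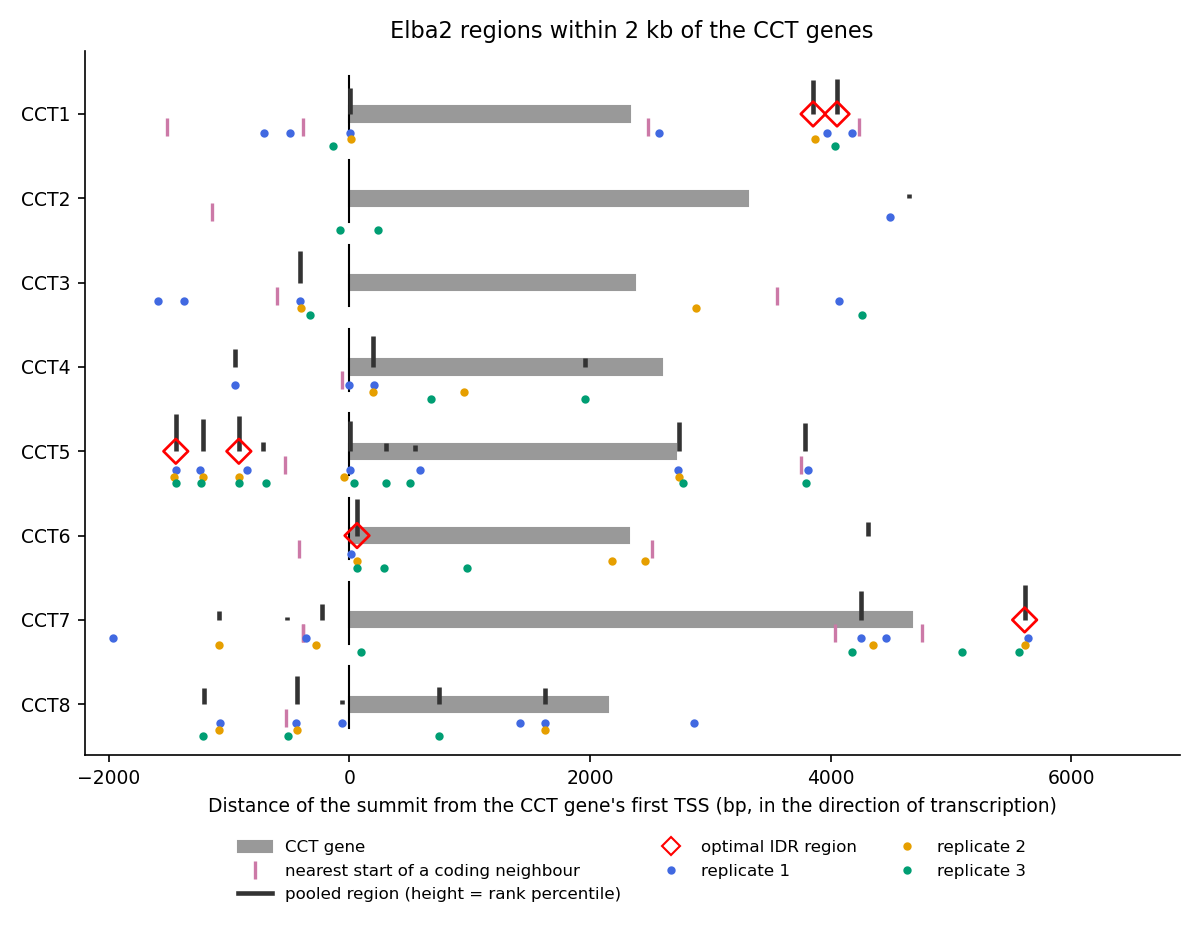
Elba2 summits within 2 kb of each CCT gene, placed by distance in bp from the gene's first TSS in the direction of transcription. Grey boxes are the CCT genes, black bars pooled regions with height by rank percentile, red diamonds optimal summits, coloured points replicate summits and pink ticks the nearest starts of protein-coding neighbours; 1 diamond stands at a CCT start, that of CCT6, and the other 5 lie near CCT1, CCT5 and CCT7.

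Known words were searched on both strands, around the summits and in the 300 bp promoters. CCAATAAG, the site of ELBA, and CCAATTGG, the palindrome bound by the related protein Insensitive, were found within 100 bp of 0 of the 7 pooled CCT summits. They were at 4.88% and 7.40% of the 2028 optimal summits at starts and at 2.43% and 3.32% of the 5844 pooled summits at starts of protein-coding genes. Neither word was in any of the 8 CCT promoters, beside 0.974% and 0.945% of all promoters, so that with 8 genes a count of 0 falls well within the share of all genes.

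Of the 8 words, 4 occurred in CCT promoters. GGTCACAC was at the CCT6 start, beginning 3 bp after the first base of the transcript and 60 bp before the Elba2 summit, and at CCT4 74 bp before the TSS. The CCT4 copy did not lie within 100 bp of the pooled summit there. It was in 7.69% of all promoters, at 10.2% of optimal and at 7.72% of pooled summits at starts. TATCGATA, the full DRE, was found in CCT2, at 140 and 22 bp before the TSS, and in CCT5, at 35 bp before the TSS and 38 bp before the pooled summit. It was in 9.36% of all promoters, at 8.19% of optimal and at 7.24% of pooled summits at starts. Together these words were in 4 of the 8 CCT promoters (CCT2, CCT4, CCT5 and CCT6), beside 16.1% of all promoters. This joint count was not among the planned ones and is a description.

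The remaining words were counted in the same way. CAGGTAG, the site of Zelda, the activator of the early zygotic genome, was in 1 promoter, that of CCT2 at 239 bp before the TSS, and in 1.64% of all. GAANNTTC, a core of the heat shock element, was in those of CCT2 and CCT8, 42 bp after and 6 bp before the TSS, and in 9.37% of all. GAGAGAG, the GAGA repeat, and CACGTG, an E-box, were in 0 CCT promoters and in 5.86% and 4.20% of all. GC content of the 300 bp promoters had a median of 36.2% in the family and 38.0% over all genes, and CCT4 was highest at 46.3%.

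**Figure D4:**
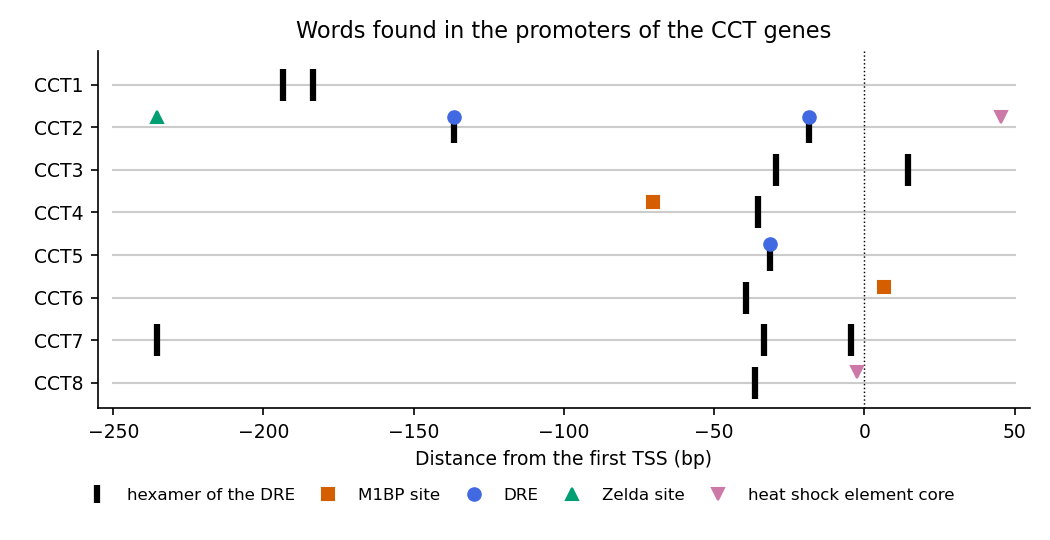
Positions of the words found in the promoters of the 8 CCT genes, as distance in bp from the first TSS (0, dotted line), upstream to the left. Black ticks mark the 6-base centre of the DRE, which is present in all 8 promoters and within 50 bp before the TSS in all but CCT1; coloured symbols mark the M1BP site, the full DRE, the Zelda site and the heat shock element core.

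Cofactors and clients of CCT and its mitochondrial relatives, the Hsp60 family, were described in the same way. Of these 35 genes, 8 had an optimal summit at a start (22.9%) and 21 a pooled region (60.0%), beside 17.9% and 53.2% of all genes. Of the 6 prefoldin genes, whose products bring clients to the ring, 3 had an optimal summit and 5 a pooled region. Pfdn5 had a signal of 134 and ranks of 2159, 1003 and 3239 in replicates 1, 2 and 3, and its summit is the one found downstream of CCT1. Pfdn6 had a signal of 126 and ranks of 1703, 3716 and 2138, at a start shared with Su(z)12, a Polycomb repressor subunit. The prefoldin gene mgr had a signal of 114 and ranks of 2375, 2483 and 7982, at a start shared with Irbp. Pfdn2 (80.6) and Pfdn4 (59.7) had weaker pooled signals, and Pfdn1 had no pooled region.

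The phosducin-like cofactor gene viaf had a pooled signal of 78.9 and no optimal summit. Its ranks were 3412, 24999 and 25822 in replicates 1, 2 and 3, so the region was weak in replicates 2 and 3. Of the 4 genes of the mitochondrial Hsp60 family, relatives of CCT, Hsp60A had an optimal summit with a signal of 118 and ranks of 2391, 3196 and 1303, and the others had no pooled region. All 8 partner genes with an optimal summit had signals below the 199 of CCT6.

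Among the clients, 0 of 6 actin genes had an optimal summit, and the cytoplasmic actin genes Act5C and Act42A had pooled signals of 103 and 86.7. Act42A ranked 3105, 5739 and 21280 in replicates 1, 2 and 3. Of 10 tubulin genes, 2 had an optimal summit. The beta-tubulin gene betaTub56D had a signal of 139 and ranks of 1623, 4586 and 2490. The gamma-tubulin gene gammaTub23C had a signal of 139 and ranks of 1367, 1305 and 13601, at a start shared with Rrp1, a DNA repair gene. The strongest tubulin genes without an optimal summit were alphaTub84B (106) and gammaTub37C (79.7). At the start of gammaTub37C the ranks were 20916 and 9899 in replicates 1 and 3, and replicate 2 had no region. Of 4 tubulin folding cofactors, which take over tubulin released by CCT, Tbcd had an optimal summit with a signal of 131, shared with CG11723, and Tbce had a pooled signal of 91.1. Of 4 WD40-repeat proteins the anaphase-promoting complex activator fzy had an optimal summit, with a signal of 122, shared with cni. Its relative fzr (71.6) and the G protein gene Gbeta13F (59.4) had pooled regions only. Gbeta13F ranked 3282, 13091 and 19534 in replicates 1, 2 and 3.

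**Figure D5:**
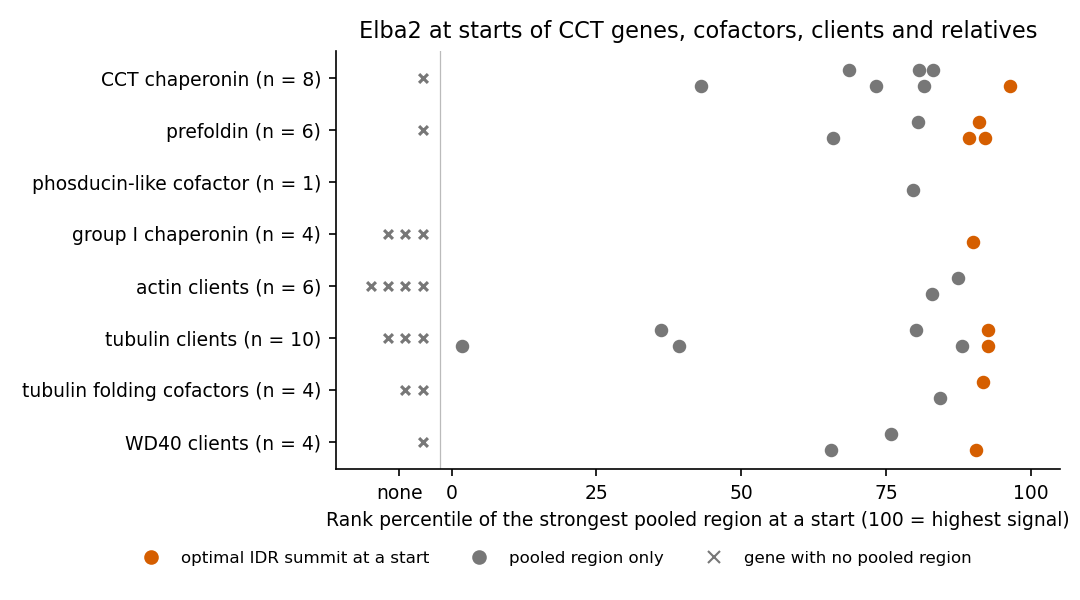
Rank percentile in the pooled list (horizontal axis, 100 the highest signal) of the strongest Elba2 region at a start, 1 point per gene, for the CCT genes and 7 lists of cofactors, clients and mitochondrial relatives (group I chaperonin). Orange points have an optimal IDR summit at a start and crosses are genes with no pooled region. CCT6 at 96.4 is the highest point, followed by the tubulin genes betaTub56D and gammaTub23C at 92.6. Among the partners below these, 3 prefoldin genes lie between 89.4 and 92.1.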

How the data were processed

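Regions came from lists in narrowPeak form on build dm6, deposited by the authors for each of the 3 replicates, for the replicates pooled, and as an optimal IDR set. The deposited signal column gave the authors' value per region and was used only for ranks within a list. Per the labels, chromatin was sonicated to 200 to 800 bp. For the aligner, the caller and the threshold on IDR, names and values were not given in the sources used here. Lists on dm3 were not used.

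Genes came from Ensembl release 115 (FlyBase 6.54) and bases from the Release 6 genome. Python 3.11.15, NumPy 2.4.6, SciPy 1.17.1 and Matplotlib 3.10.9 were used, and functions were tested on simulated data. No test was made, since there was 1 group. Coordinates are 1-based.

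Of 36 partner symbols 35 matched, 6 of them through synonyms, and TBCA matched none. The members and lists were chosen with earlier results of these data known. Named were all CCT genes, genes sharing or flanking their regions, partner genes with an optimal summit and up to 2 others of highest signal per list, and the genes nearest to CCT6 in replicate ranks. Pfdn1 and the second-nearest start were added to these once their values were known. Alternatives changed the distances, the region set, the TSS set and the replicates used.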

Additional observations from a re-analysis of the deposited data

How the results depend on the processing

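CCT6 remained the only CCT gene with an optimal summit at a start under 250 bp and under region overlap, where 14.5% and 19.4% of all genes had one. The same held with the stronger 1638 optimal regions and with the first TSS alone (16.5% of all genes). Within 1000 bp the count was 2, with CCT5 added, beside 21.0% of all genes. The mean of top-ranked CCT genes per replicate then rose from 1.00 to 1.67. Without 1 replicate the optimal list was not remade, and top-ranked sites shared by the remaining replicates took its place. These numbered 2114, 2165 and 2366 without replicates 1, 2 and 3, fewer than the 3276 optimal regions. CCT6 was again the only member with such a site at a start. The shares and counts without 1 replicate rest on these fewer sites. The share of all genes was 10.0% with the stronger 1638 regions and 11.6% to 13.8% without 1 replicate. The partner count of 8 became 0 with the stronger 1638 regions and 3 to 5 without 1 replicate, so CCT6 was the only gene of all lists left in that stronger set. Pooled regions at a start were found for 6 CCT genes within 250 bp, in place of 7, with CCT3 lost. Pooled regions away from starts were near 4 genes, in place of 7, within 1000 bp. Summits with a known word numbered 1 within 50 bp and 5 within 200 bp, in place of 2. For the pooled, top-ranked and word counts under changed settings, no share of all genes was counted. Within 250 bp CCT8 had a region in replicate 1 only, at a percentile of 18.8. The mean percentiles of CCT4 and CCT5 were 56.9 and 92.7 within 1000 bp. For CCT5 the strongest regions within 1000 bp had percentiles of 85.6, 94.4 and 98.1 in replicates 1, 2 and 3. CCT5 thus stood above CCT6 (96.2) in replicate 3 and below it in replicates 1 and 2. The causes were not tested beyond the construction of each setting. No paired analysis was possible because there was 1 group and no test. Unknown depth limits what can be said of weak regions.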

Other observations

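The hexamer ATCGAT, found in 8 of 8 CCT promoters, was in 32.5% of the promoters of the 2495 genes with an optimal Elba2 summit at a start. It was in 30.7% of the 4937 genes with a pooled region only and in 14.1% of the 6536 genes with no pooled region. Copies wholly within 50 bp before the TSS were found in 15.4%, 14.3% and 4.48% of these genes. CCT2, with full DREs at 140 and 22 bp before its TSS, was the member with no pooled region, and its start is the only one of the family with no divergent neighbour within 1000 bp. Promoters with and without the hexamer were not matched for gene arrangement or base composition, and their part in these shares was not tested.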
